A study of Sus scrofa with 6 samples.

Results

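The 10 genes described here encode the tools with which cytotoxic lymphocytes kill a target cell and call other leukocytes, and they were followed in lymphocytes of the piglet ileum over the first 3 weeks of life. They were chosen by their symbols, PRF1, GZMB, GZMK, GZMA, NKG7, CTSW, FASLG, CRTAM, IFNG and XCL1, and all 10 were found among the 20648 genes counted. The data come from 6 libraries made with the 10x Chromium system, 1 at each age, on days 0 (birth), 1, 3, 7, 14 and 21. The animals were untreated male Large White piglets fed maternal milk, 5 per age by the methods of the study, with 1 chip channel loaded per age. With 1 library per age there was no replicate of an age, so ages were compared only as 1 library against another, with intervals that cover counting error and nothing else. Cells came from scraped mucosa released with EDTA and TrypLE, so lymphocytes that stayed in deeper tissue were not sampled.

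A cytotoxic lymphocyte stores perforin and granzymes in granules and releases them against a bound target. Perforin opens the target membrane and the granzymes, which are serine proteases, enter and start cell death. Such lymphocytes also display Fas ligand, which triggers the death receptor FAS, and secrete interferon gamma and the chemokine XCL1. In the gut, CD8 T cells of the epithelium are the best known carriers of these genes, while group 3 innate lymphoid cells are known for IL-22 rather than for killing.

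Barcodes with at least 1000 UMIs (unique molecular identifiers, each standing for 1 captured transcript) and at least 500 genes were kept, 10836 to 15956 per library and 76099 in all. A T cell had at least 2 UMIs of the CD3 genes CD3E and CD3G and none of the B cell genes MS4A1 and PAX5. A CD8 T cell had a UMI of CD8A or CD8B and none of CD4, and a CD4 T cell had the reverse. An innate lymphoid cell had at least 5 UMIs summed over TAC3, NCR2, IL23R and KLRB1 and at most 1 CD3 UMI. The CD8 T gate held 281, 173, 60, 112, 109 and 55 cells on days 0, 1, 3, 7, 14 and 21, or 790 in all. The CD4 T gate held 109, 210, 65, 83, 34 and 23 cells, or 524. The innate lymphoid gate held 431, 425, 760, 96, 109 and 5 cells, or 1826. The 3471 T cells without a UMI of CD4, CD8A or CD8B, called double-negative here, were kept apart and described. Since CD8A stood at only 2.71 UMIs per 10000 in the CD8 gate itself, a double-negative barcode need not have lacked CD8 or CD4 transcripts. No member served in any gate. The libraries differed in make-up. B cell barcodes had at least 2 UMIs of MS4A1 and PAX5 and none of the CD3, CD8 or CD4 genes. They were 13.5%, 21.5%, 59.5%, 72.8%, 85.2% and 87.1% of the barcodes from day 0 to day 21. T cells were 17.3%, 14.4%, 3.07%, 3.42%, 2.24% and 1.29%. Whether the same layer of the tissue was sampled at each age was not tested.

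CD247, LCK and IL22, which no gate had used, divided CD8 T cells from innate lymphoid cells. CD247 and LCK, 2 signalling genes of the T cell receptor, stood at 3.05 and 2.41 UMIs per 10000 in CD8 T cells, at 2.17 and 2.33 in CD4 T cells, and at 0.17 and 0.24 in innate lymphoid cells. IL22, the leading cytokine of group 3 innate lymphoid cells, stood at 5.35 in the innate gate and at 0.20 in CD8 T cells. The 7 markers of CD4 T cells, CD4 among them, together stood at 3.75 to 7.92 in CD4 T cells and 0.671 to 1.99 in CD8 T cells. They stood at 4.53 to 7.45 in the innate gate, so they did not divide it from CD4 T cells. The 6 markers of natural killer cells together stood at 10.4 to 14.9 in the innate gate, 6.55 to 15.1 in CD8 T cells and 0.497 to 3.66 in CD4 T cells. In the innate gate most of this was TYROBP (5.65) and FCER1G (4.82), while NCR1 and KLRD1 stood at 0.02 and 0.01. Median depth per cell ranged from 2934 to 4845 UMIs over the CD8 T libraries, from 3096 to 5647 over CD4 T cells and from 4371 to 7610 over innate lymphoid cells. Epithelial transcripts differed between libraries, and their 8 markers together ranged from 0.268 to 21.8 UMIs per 10000 in CD8 T cells. The innate gate did not leave out barcodes with B cell genes, and the 7 B cell markers together stood at 0.728, 0.676, 2.94, 5.36, 8.91 and 12.3 there from day 0 to day 21, against at most 0.963 in CD8 T cells. Pairs of libraries shared 31 to 68 barcode sequences, and among T and innate lymphoid cells only 3 barcodes in all were shared.

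The level of a gene is given as its UMIs per 10000 UMIs of the gate, with an exact 95% Poisson interval. Each UMI marks the 3' end of a transcript, so a level does not grow with transcript length. In B cell barcodes, which should lack these genes, the members stayed low in every library. NKG7 reached at most 0.0881 there and CTSW at most 0.313, with median depths of 3647 to 4787 UMIs. Barcodes with 100 UMIs or fewer, taken as a measure of RNA free in the suspension, held more of several members. GZMB reached 0.328 there on day 1, above its level of 0.208 in innate lymphoid cells of that day, and the highest free levels of XCL1, NKG7 and CRTAM were 0.453, 0.397 and 0.288. CTSW stood at 1.62, 1.23, 1.57, 0.394, 0.302 and 0.0908 UMIs per 10000 there from day 0 to day 21.

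The members together were mostly outside the CD8 gate. Double-negative T cells, 4.56% of the barcodes, held 51.2% of all 6707 GZMB UMIs, 47.5% of XCL1 and 40.5% of NKG7. CD8 T cells, 1.04% of the barcodes, held 25.3% of GZMB and 43.5% of the 69 GZMK UMIs. Innate lymphoid cells, 2.40% of the barcodes, held 45.4% of the 46032 CTSW UMIs and 53.2% of the 156 FASLG UMIs.

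**Figure D1:**
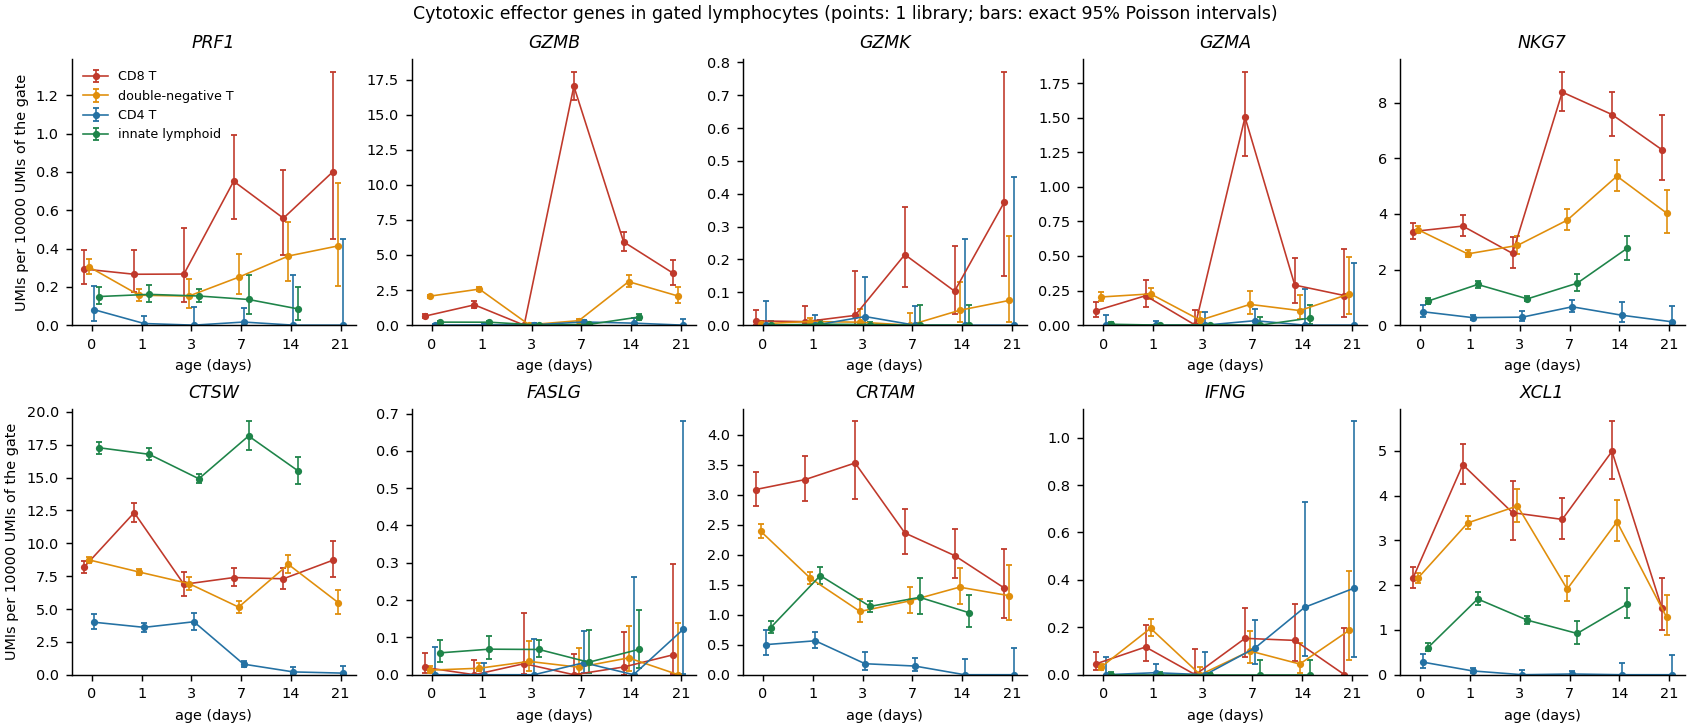
Each panel plots the level of 1 member (UMIs per 10000 UMIs of the gate, linear axis from 0) against age in days (evenly spaced) in 4 gates, with 1 point per library of at least 10 cells, lines that join the libraries of a gate, and exact 95% Poisson intervals as bars. GZMB and GZMA peaked on day 7 in CD8 T cells at 17.0 and 1.5, NKG7 was 2.58 on day 3 against 8.38 on day 7, and CTSW was highest in innate lymphoid cells in each of the 5 libraries shown for them.

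PRF1 encodes perforin and lies on chromosome 14, positions 73515306 to 73520256 of Sscrofa11.1. In CD8 T cells its level was 0.293 (0.214 to 0.392), 0.266 (0.172 to 0.392), 0.267 (0.122 to 0.507), 0.752 (0.556 to 0.994), 0.559 (0.368 to 0.813) and 0.803 (0.449 to 1.32) from day 0 to day 21. A UMI was found in 13.2%, 12.1%, 11.7%, 20.5%, 19.3% and 23.6% of the cells. The 3 early libraries lay together below the 3 late ones, but some intervals of neighbouring ages overlapped. CD4 T cells held only 6 PRF1 UMIs in 524 cells, and innate lymphoid cells 0.0845 to 0.161 per 10000 in the 5 libraries with at least 10 cells.

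GZMB, granzyme B, the protease most directly tied to caspase activation, lies on chromosome 7, positions 74705499 to 74708781. Its level in CD8 T cells from the youngest to the oldest library was 0.638 (0.518 to 0.778), 1.45 (1.21 to 1.71), 0, 17.0 (16.0 to 18.1), 5.94 (5.27 to 6.67) and 3.69 (2.87 to 4.67). Day 7 stood above every other library. No GZMB UMI was found in the 60 CD8 T cells of day 3, for which 3 UMIs, the floor used here, would be a level of 0.0890 per 10000 and the exact interval reaches 0.109. The share of CD8 T cells with a UMI was 4.27%, 5.20%, 0%, 19.6%, 15.6% and 10.9%. Taken at 1000 UMIs per cell, where the CD8 T libraries have equal depth, the shares were 2.20%, 2.80%, 0%, 14.6%, 11.12% and 8.66%. A single barcode held 363 of the 1110 UMIs of day 7, and without it the level was 11.6 (10.8 to 12.5), still the highest of the 6 libraries. Without their largest barcodes days 0, 1, 14 and 21 stood at 0.347, 0.698, 3.99 and 2.38. Next to GZMB on chromosome 7 lie GZMH, 15019 bases further on, and 4 unnamed coding genes. Whether reads common to such related genes were counted or lost was not assessed here, so the levels of GZMB and GZMH are uncertain to that extent.

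The other granzymes of the set lie side by side on chromosome 16. GZMA, a tryptase-like granzyme, stood at 0.104, 0.213, 0, 1.5 (1.22 to 1.83), 0.290 and 0.214 in CD8 T cells. Its level thus peaked in the same library as GZMB. The reference holds 2 entries named GZMA, at 34262495 to 34272084 and 34282160 to 34290422, and the counts carry the symbol once, so the second entry was not assessed. GZMK, granzyme K, at 34217339 to 34226139, was the scarcest granzyme. It gave 2, 1, 1, 14, 5 and 7 UMIs in CD8 T cells, or 0.0130, 0.0106, 0.0297, 0.215 (0.117 to 0.360), 0.103 (0.0336 to 0.241) and 0.375 (0.151 to 0.772) per 10000. CD4 T cells had 1 GZMK and 2 GZMA UMIs in all, and innate lymphoid cells had 2 and 6.

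NKG7 encodes a granule membrane protein that takes part in degranulation and lies on chromosome 6, positions 58496089 to 58497827. Its level in CD8 T cells was 3.37 (3.08 to 3.67), 3.56 (3.19 to 3.96), 2.58 (2.07 to 3.18), 8.38 (7.69 to 9.11), 7.57 (6.82 to 8.39) and 6.31 (5.23 to 7.56). The interval of each late library lay above that of each early one, while days 7 and 14, and days 14 and 21, overlapped. It was detected in 56.6% to 76.8% of CD8 T cells, in 4.35% to 28.9% of CD4 T cells and in 37.8% to 64.2% of innate lymphoid cells in the libraries with at least 10 cells. In innate lymphoid cells the level was 0.865, 1.46, 0.945, 1.51 and 2.76 from day 0 to day 14.

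CTSW, cathepsin W, a cysteine protease largely restricted to T and NK cells, lies on chromosome 2, positions 6446105 to 6450357. In CD8 T cells it stood at 8.22, 12.3, 6.88, 7.39, 7.30 and 8.72, with day 1 (11.6 to 13.1) above all others. In innate lymphoid cells it stood at 17.3, 16.8, 14.9, 18.2 and 15.5 in the libraries with at least 10 cells, and 91.7% to 98.4% of those cells had a UMI. In CD4 T cells it was 3.99 (3.46 to 4.59), 3.6 (3.27 to 3.96) and 4.03 (3.42 to 4.72) on days 0, 1 and 3 and then 0.804 (0.597 to 1.06), 0.213 (0.0440 to 0.624) and 0.122 (0.00309 to 0.679). The 3 early CD4 libraries lay far above the 3 late ones. The free-RNA level of CTSW given above fell between the same ages, from 1.57 on day 3 to 0.394 on day 7, and its part in the CD4 values was not tested.

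FASLG, Fas ligand, on chromosome 9, positions 115068314 to 115075147, was near the limit of detection in T cells. The CD8 gate held 6 UMIs and the CD4 gate 3. Innate lymphoid cells held 83 UMIs in 79 of 1826 cells, at 0.0585, 0.0685, 0.0676, 0.0335 and 0.0676 per 10000 from day 0 to day 14. The innate level was above the CD8 T level in 5 of 5 libraries, although single libraries overlapped in their intervals.

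CRTAM, an adhesion receptor of activated cytotoxic lymphocytes that binds CADM1, lies on chromosome 9, positions 49782166 to 49811314. In CD8 T cells its level was 3.09 (2.81 to 3.38), 3.25 (2.90 to 3.64), 3.53 (2.92 to 4.22), 2.36 (2.0 to 2.77), 1.99 (1.61 to 2.43) and 1.44 (0.952 to 2.10). On day 3 a single barcode held 61 of the 119 UMIs, and without it that level was 1.80. Leaving out the largest barcode of each library, the levels were 3.01, 3.12, 1.80, 2.12, 1.78 and 1.05, so days 0 and 1 were the highest and day 3 lay among the late libraries. A UMI was found in 60.9% of CD8 T cells on day 0 and in 27.3% on day 21. At 1000 UMIs per cell these shares were 30.3% and 12.5%.

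The 2 secreted members differed in abundance. XCL1, the chemokine that draws cross-presenting dendritic cells, lies on chromosome 4, positions 82432845 to 82436150. It stood at 2.16 (1.94 to 2.41), 4.69 (4.26 to 5.15), 3.62 (3.00 to 4.32), 3.47 (3.03 to 3.95), 4.99 (4.38 to 5.66) and 1.5 (0.995 to 2.17) in CD8 T cells. Days 1 and 14 were high, days 0 and 21 low, and there was no single direction with age. IFNG, interferon gamma, on chromosome 5, positions 32477906 to 32482670, gave 7, 11, 0, 10, 7 and 0 UMIs in CD8 T cells and 15 in all CD4 T cells. The 1826 innate lymphoid cells held no IFNG UMI, for which the floor of 3 cells would be a share of 0.164% and the exact interval reaches 0.202%. Both limit the share of cells with an IFNG UMI, not of cells that express the gene, and cover counting error only. Over the 5 libraries with at least 10 cells in both gates, the CD8 T level of IFNG was 38.3-fold a floor of 3 UMIs in the innate gate. This is no strict lower bound, since the 35 CD8 T UMIs carry counting error of their own. The day 3 library had no IFNG UMI in any kept barcode, yet it gave 760 of the innate cells behind the floor.

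The first comparison asked whether the members separate CD8 from CD4 T cells of the same libraries. Counts were summed per library and gate and tested with the quasi-likelihood test of edgeR with a term for each library, so that the 6 ages served as pairs of gates and not as replicates of a condition. Of 5165 genes tested, 3.16% were called higher and 1.68% lower in CD8 T cells at an adjusted p under 0.05. Of the 10 members, 6 had enough counts to be tested, and each of these was called higher in CD8 T cells. GZMB, XCL1 and PRF1 had only 19, 25 and 6 UMIs in CD4 T cells and passed the count filter through the CD8 gate, where they are high. For these members the direction was fixed by the filter. NKG7, CRTAM and CTSW fell to 0.122, 0 and 0.122 UMIs per 10000 in their lowest CD4 library, so they too needed the CD8 sums to pass. The count of 6 is therefore no support for the set.

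GZMB had the largest fold change of the members, 6.09 ± 0.33 on the log2 scale (SE, edgeR adjusted p = 1.9e-09), and ranked 3 among the genes tested by fold change. It was higher in CD8 T cells in 5 of 6 libraries, and the exception was day 3, with 0 UMIs in CD8 and 1 in CD4 T cells. Without the library of day 0, 1 or 7, GZMB was under the count filter and not tested. XCL1 followed at 5.32 ± 0.40 (adjusted p = 6.9e-08), with 1390 UMIs in CD8 T cells and 25 in CD4 T cells. PRF1 was higher by 4.09 ± 0.47 (adjusted p = 1.4e-05), NKG7 by 3.54 ± 0.20 (adjusted p = 1.9e-09) and CRTAM by 3.17 ± 0.26 (adjusted p = 2.6e-07). CTSW showed the smallest difference, 2.02 ± 0.35 (adjusted p = 0.0011). These 5 members were higher in CD8 T cells in 6 of 6 libraries. GZMK, GZMA, FASLG and IFNG were under the count filter. Without it 8 members were called higher and none lower in CD8 T cells, where 1.95% of 15020 genes were called higher and 1.11% lower, and the added GZMK and GZMA had 1 and 2 UMIs in CD4 T cells. For IFNG the levels were 0.0846 in CD8 and 0.0516 in CD4 T cells, and CD4 T cells were the higher in 2 libraries. CTSW lost its call when the library term was left out (1.75, adjusted p = 0.24 by edgeR).

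**Figure D2:**
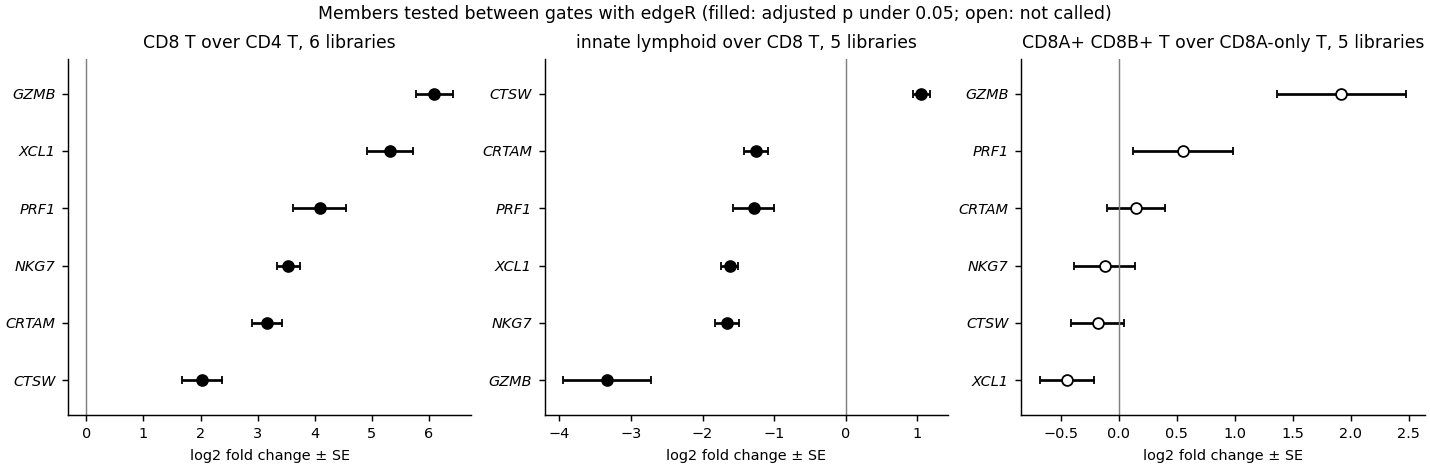
Each panel plots log2 fold changes (horizontal axis, linear, own range per panel) of the 6 members tested in 1 comparison of gates, with edgeR standard errors as bars and filled symbols for an adjusted p under 0.05. All 6 lay above 0 for CD8 T over CD4 T cells, only CTSW lay above 0 for innate lymphoid over CD8 T cells, and none was called between the CD8 T cells with and without CD8B.

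Lists of related genes were read from the same fit, in which the median log2 fold change over all genes tested was -0.0057. Of the 11 tested genes for granule loading and release, 3 were higher in CD8 T cells and none lower, with a list median of 0.13. These were the granzymes GZMM (5.70 ± 0.41) and GZMH (2.64 ± 0.36) and the cystatin CST7 (2.01 ± 0.27). SRGN, CTSC, LAMP1 and the other 5 genes, which serve granules in many leukocytes, did not pass. Of 8 receptors shared with natural killer cells, 5 were higher and 1 lower, with a median of 2.27. CD96 (4.87 ± 0.43) and the activating receptor KLRK1 (4.46 ± 0.45) led the 5, and TIGIT, an inhibitory receptor, was the lower one (-1.62 ± 0.40). Of 9 transcription factors of effector lymphocytes, 5 were higher, among them ZNF683 (4.86 ± 0.45) and RUNX3 (2.45 ± 0.16), and BATF was lower (-1.07 ± 0.19). GZMM, CD96, KLRK1, CD244, ZNF683 and TBX21 had 4, 9, 23, 14, 3 and 21 UMIs in all CD4 T cells against 368, 445, 855, 230, 163 and 111 in CD8 T cells. Genes so low in CD4 T cells passed the count filter through the CD8 gate, so their direction was set by the filter, and the counts and medians of these lists describe the genes that passed. TIGIT, with 42 UMIs in CD8 T cells and 84 in CD4 T cells, needed the CD4 sums to pass, so its call is under the same limit.

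Genes of residence in gut tissue, of chemokines and of recirculation completed the lists. Of 8 residence and homing genes, 4 were higher and none lower, with the epithelial integrin ITGAE at 2.99 ± 0.27 and the gut-homing receptor CCR9 at 2.13 ± 0.37. The 4, ITGAE, CCR9, ITGA1 and CXCR3, had 49, 42, 25 and 34 UMIs in all CD4 T cells. In CD8 T cells they had 576, 275, 157 and 136. They too passed the count filter through the CD8 gate, so the count of 4 describes only genes that passed. Of 5 chemokines and cytokines tested, CCL5 (5.30 ± 0.40) and TNFSF10 (1.13 ± 0.16) were higher. Of 8 genes of naive and recirculating lymphocytes, none was higher and 2 were lower, CCR7 (-1.08 ± 0.27) and S1PR1 (-1.08 ± 0.21). Among the receptors of the members, IFNGR2 was lower (-1.29 ± 0.29) and the other 3 tested were not called. Of 5 genes of interferon gamma induction, IL2RB was higher (0.95 ± 0.23) and 4 were not called. All values in these lists are log2 fold changes ± SE from the same edgeR fit.

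The second comparison set innate lymphoid cells against CD8 T cells in the 5 libraries with at least 10 cells of each, day 21 being left out with 5 innate cells. Of 6719 genes tested, 10.6% were called higher and 8.48% lower in innate lymphoid cells. CTSW was the only one of the 6 tested members that was higher, by 1.06 ± 0.11 on the log2 scale (edgeR adjusted p = 4.2e-05) and in 5 of 5 libraries. The other 5 were lower. GZMB differed most, at -3.33 ± 0.61 (adjusted p = 0.0022), and was lower in 4 of 5 libraries. NKG7 (-1.66 ± 0.17), XCL1 (-1.62 ± 0.12), PRF1 (-1.28 ± 0.29) and CRTAM (-1.25 ± 0.17) were lower in 5 of 5 libraries, with adjusted p-values of edgeR from 1.7e-06 to 0.0073. GZMB and PRF1 fell to 0.00376 and 0.0845 UMIs per 10000 in their lowest innate library. They needed the CD8 sums to pass the count filter, so their calls are no support for the set. When barcodes with a UMI of MS4A1 or PAX5 were left out of the innate gate, a setting added after seeing the data that left 405, 404, 614, 68 and 68 cells, the same 6 calls were made, with CTSW at 1.24 and GZMB at -3.01. Without the low-count filter 2 members were called higher and 8 lower, where 8% of 15851 genes were called higher and 5.65% lower.

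The lists divided in this comparison. Of 13 granule genes, SRGN (1.29 ± 0.11), CST7 (1.29 ± 0.13) and STX11 were higher in innate lymphoid cells, while GZMH (-6.64 ± 0.56), GZMM (-6.23 ± 0.29) and CTSC were lower. Innate lymphoid cells thus had more of the proteoglycan SRGN, on which granule proteins are packed, and less of the granzymes. Of 8 receptors, the adaptors TYROBP (3.47 ± 0.40), HCST and FCER1G were higher and KLRK1 (-2.86 ± 0.21), FCGR3A and CD96 lower. Among 5 cytokine genes, TNF (2.75 ± 0.35), LTB (2.62 ± 0.20) and LTA were higher and CCL5 (-4.24 ± 0.17) and TNFSF10 lower. GZMM and GZMH had 12 and 35 UMIs in all innate lymphoid cells against 368 and 1252 in CD8 T cells, so they passed the count filter through the CD8 gate and could only be lower.

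Among the genes of interferon gamma induction, the receptor chains IL18R1 (2.32 ± 0.27) and IL2RG (0.76 ± 0.15) were higher in innate lymphoid cells and STAT4 (-1.28 ± 0.21) was lower, in cells without an IFNG UMI. Of 8 transcription factors, ID2 (1.88 ± 0.15), BHLHE40 and RUNX3 were higher and ZNF683 (-5.69 ± 0.49) lower, the last with 13 UMIs in all innate lymphoid cells and so under the same limit. Residence genes gave 2 higher and 5 lower of 8, recirculation genes 1 higher and 4 lower of 8, and receptors of the members 2 higher and 1 lower of 4, with FAS as the lower one (-1.79 ± 0.30). FAS, S1PR1, LEF1 and ITGB7 had 92, 89, 21 and 135 UMIs in all innate lymphoid cells. In CD8 T cells they had 125, 241, 208 and 349. They too needed the CD8 sums to pass the count filter, so these counts of lower genes describe only genes that passed.

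Within the CD8 gate, cells with both CD8A and CD8B UMIs were compared with cells that had CD8A alone. Conventional CD8 T cells carry both chains, whereas many lymphocytes of the gut epithelium carry the alpha chain only. A cell can also miss a CD8B UMI through low depth. In the 5 libraries compared, the median depths were 2989 to 5296.5 UMIs with both and 3040 to 4936 with CD8A alone. Among 2807 genes tested in 5 libraries (day 3 left out with 9 cells), 0.0356% were called higher and 0.0713% lower in cells with both chains. None of the 6 tested members was called by edgeR in either direction, 1 had an unadjusted p under 0.05, and DESeq2 called none. That one was GZMB, at 1.92 ± 0.56 (adjusted p = 0.45). Without the low-count filter GZMB was called higher, where 0.206% of 14093 genes were called higher and 0.333% lower.

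The libraries differed widely in GZMB. Cells with both chains had 0, 2.93, 49.5, 14.4 and 10.0 GZMB UMIs per 10000 on days 0, 1, 7, 14 and 21, against 0.955, 1.19, 4.80, 3.70 and 0.978 in cells with CD8A alone. Single barcodes carried much of these levels, and without the largest of each library the values were 0, 0, 31.0, 6.18 and 6.80 with both chains and 0.520, 0.458, 2.50, 1.85 and 0.411 with CD8A alone. The first group was higher in 4 of 5 libraries, day 0 being the exception. The day 1 value came from 71 UMIs in 1 of 39 cells, while 7.87% of the cells with CD8A alone had GZMB on that day. Without the largest barcodes the first group was higher in the 3 late libraries only. Without the day 0 library GZMB was called higher in cells with both chains (2.50, adjusted p = 0.00021 by edgeR). On day 7, 50% of 24 cells with both chains and 12.2% of 82 cells with CD8A alone had a GZMB UMI. GZMA had 4.04 UMIs per 10000 on day 7 in the cells with both chains and 0.560 in the others, and was not tested for lack of counts. For the other 5 members the fitted differences lay between -0.45 (XCL1) and 0.55 (PRF1), with standard errors of 0.23 to 0.43.

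The youngest and the oldest library were set side by side for CD8 T cells, without a test. PRF1, GZMB, GZMK and NKG7 were lower on day 0 and CRTAM was higher, with intervals that did not overlap. Of all 13575 genes with a UMI in either library, 3.84% were higher and 7.43% lower on day 0 by the same rule. The ratio of day 21 to day 0 was 5.79 (4.19 to 7.95) for GZMB, 2.74 (1.42 to 5.01) for PRF1, 1.88 (1.52 to 2.29) for NKG7 and 0.468 (0.305 to 0.690) for CRTAM. For GZMK it was 28.8, with an interval from 5.48 to 284 that reflects 2 UMIs on day 0 and 7 on day 21. CTSW stood within a ratio of 0.895 to 1.25. In the same gate the 6 markers of natural killer cells stood at 7.96 on day 0 and 15.1 on day 21. The 7 B cell markers stood at 0.195 and 0.963. Age and library cannot be told apart.

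When each barcode was thinned to 1000 UMIs, only GZMB was lower on day 0 by this rule, with a ratio of day 21 to day 0 of 5.11 (2.56 to 10.2), and none was higher. Before thinning, GZMB was found in 12 of 281 CD8 T cells on day 0 and in 6 of 55 on day 21. The 5 largest barcodes held 90.8% of its 98 UMIs and 97.1% of its 69. The GZMB intervals before and after thinning treat UMIs as independent, so they do not cover this spread between cells. The share over all genes was not computed for thinned barcodes, so this count has no background. The ratio was 1.70 (0.484 to 4.93) for PRF1, 1.08 (0.711 to 1.58) for NKG7 and 0.503 (0.253 to 0.910) for CRTAM, whose 2 levels had intervals that overlapped. GZMK was left with 1 UMI in each library. Among double-negative T cells the GZMB levels of the same 2 libraries were 2.06 and 2.07, but on day 21 a single barcode held 52 of the 55 UMIs and without it the level was 0.114. GZMB was found in 104 of 1475 double-negative cells on day 0 and in 3 of 99 on day 21. PRF1 stood at 0.303 and 0.414 in double-negative cells, NKG7 at 3.43 and 4.03 and CRTAM at 2.39 and 1.32.

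GZMB UMIs were gathered in a few cells. T cells with at least 5 GZMB UMIs, a limit chosen after the values were seen, numbered 70 of 1872 on day 0, 47 of 1653 on day 1, 0 of 349 on day 3, 19 of 432 on day 7, 15 of 357 on day 14 and 4 of 178 on day 21. They were 3.74%, 2.84%, 0%, 4.40%, 4.20% and 2.25% of T cells. In the 5 libraries that had them they held 91.3% to 97.0% of the GZMB UMIs of all T cells. On days 0 and 1 most of them lay outside the CD8 gate, with 67 of 70 and 42 of 47 among double-negative T cells.

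**Figure D3:**
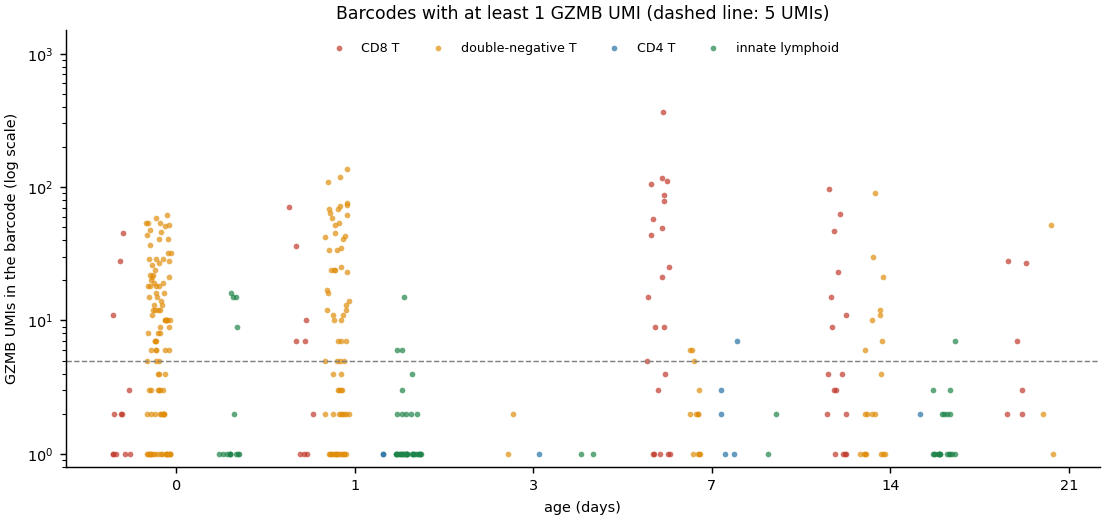
Each point is 1 barcode with at least 1 GZMB UMI, plotted by its GZMB UMIs (log axis) and the age of its library in days, and coloured by gate, with a dashed line at 5 UMIs. Above the line most barcodes were double-negative T cells on days 0 and 1 and CD8 T cells on day 7, where 1 barcode reached 363 UMIs, and none lay above it on day 3.

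The cells with at least 5 GZMB UMIs differed between early and late libraries in whether CD8 was found. On days 0 and 1, 8 of 117 had a UMI of CD8A or CD8B, and on days 7, 14 and 21, 25 of 38 did. Median depth was 5001 UMIs per cell in the early and 4294 in the late group, and 7285, 2809 and 3424 on days 7, 14 and 21. None of the 70 cells of day 0 and 47 of day 1 had a CD4 UMI. The CD3 genes that set the T cell gate also differed, with CD3E at 3.76 per 10000 in the early and 12.6 in the late cells, CD3G at 7.91 and 8.74, and CD247, which the gate did not use, at 0.630 and 3.23. The early cells thus met the gate mostly through CD3G, and whether they are T cells was not tested beyond these values. This grouping of libraries was made after seeing the values, so no test was run on it.

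Granulysin, GNLY, a pore-forming protein of granules, marked the early cells. On day 0 its level was 89.1 per 10000 in T cells with at least 5 GZMB UMIs and 0.378 in T cells with none, and on day 1 it was 101 and 0.0602. On days 7, 14 and 21 the GZMB-rich cells stood at 1.26, 9.59 and 9.85, and the cells with none at 0.0325, 0.310 and 0.756. At least 5 GNLY UMIs were found in 70 of the 117 early and in 4 of the 38 late cells, and no GNLY UMI in 45 and 29. So few of the early cells held an intermediate amount.

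Receptor adaptors followed the same division. TYROBP, the adaptor of activating NK receptors, stood at 3.63 and 3.13 on days 0 and 1 in the GZMB-rich T cells and at 0.485 and 0.592 in T cells without GZMB. On day 7 the values were 0.120 and 0.163. FCER1G was found in 98.6% of the 70 cells of day 0, 95.7% of the 47 of day 1 and 31.6% of the 19 of day 7. GZMH stood at 18.5, 14.1, 1.99, 12.5 and 29.1 on days 0, 1, 7, 14 and 21, so it did not divide early from late. CD5, a receptor of mature T cells, gave 0.0472 and 0.0326 early and 1.51, 1.22 and 2.24 late.

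**Figure D4:**
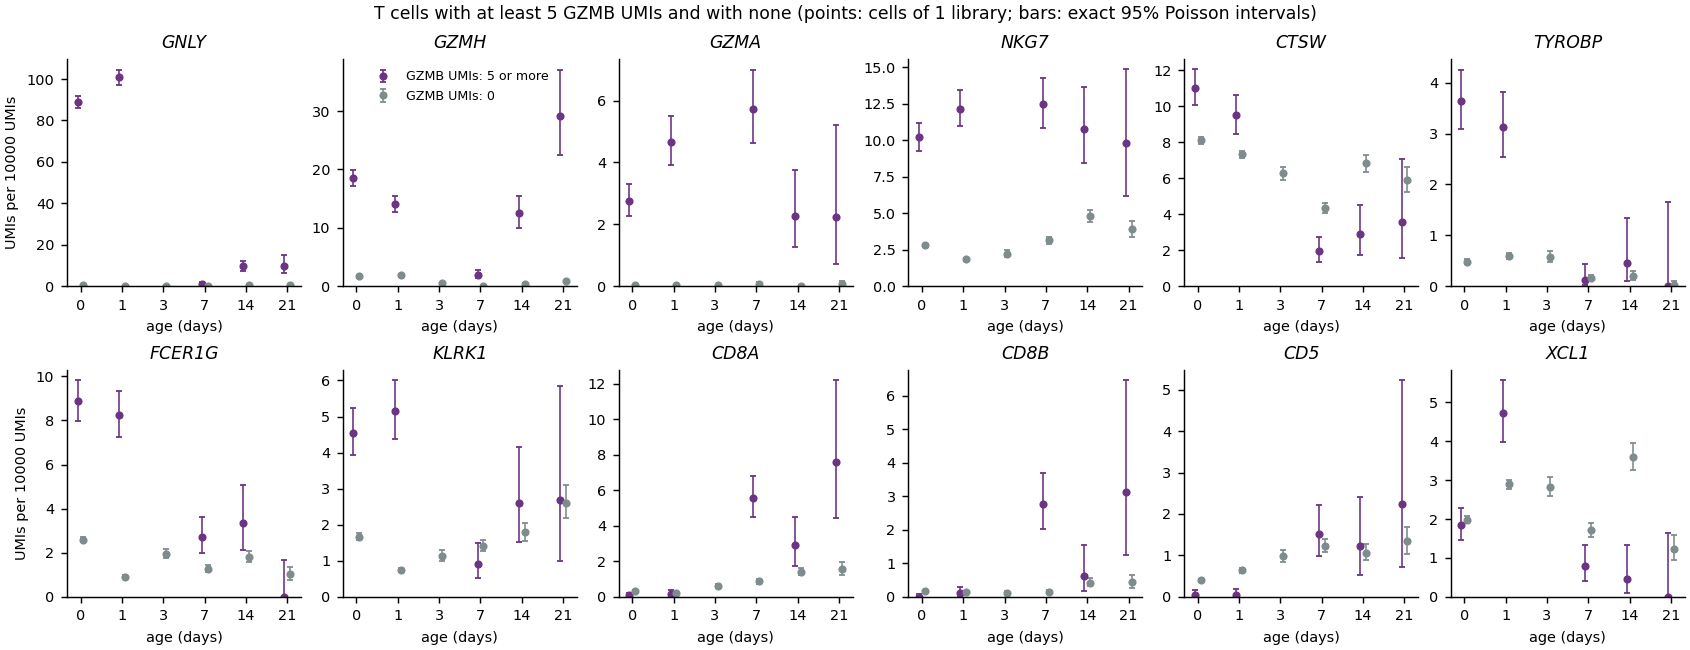
Each panel plots 1 gene in T cells with at least 5 GZMB UMIs and in T cells with none (UMIs per 10000 UMIs, linear axis from 0) against age in days, with 1 point per library and exact 95% Poisson intervals. GNLY, TYROBP, FCER1G and KLRK1 were high in the GZMB-rich cells of days 0 and 1 and CD8A and CD8B in those of days 7 to 21, while GZMA and NKG7 were above the cells without GZMB in all 5 libraries.

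The members themselves split in these cells. GZMA was 2.76, 4.67, 5.72, 2.28 and 2.24 in GZMB-rich cells on days 0, 1, 7, 14 and 21 and at most 0.0743 in T cells without GZMB. NKG7 was 10.2, 12.2, 12.5, 10.8 and 9.85 against 2.81, 1.83, 3.16, 4.81 and 3.90. Both were thus above the T cells without GZMB in each of the 5 libraries that held such cells. CTSW instead was 11 and 9.49 against 8.10 and 7.33 on days 0 and 1, but 1.93, 2.89 and 3.58 against 4.32, 6.83 and 5.91 on days 7, 14 and 21. CRTAM was 0.826, 1.79, 0.783, 0.913 and 0.895 in GZMB-rich cells against 2.50, 1.64, 1.10, 1.48 and 1.17, so day 1 went the other way from the rest. XCL1 was 1.84, 4.73, 0.783, 0.457 and 0 against 1.98, 2.89, 1.71, 3.59 and 1.23, again with day 1 the other way. The 4 GZMB-rich cells of day 21 held 8 CTSW, 2 CRTAM and 0 XCL1 UMIs. GZMK was found in 1 of the 117 early cells and in 12 of the 38 late ones.

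MKI67, a gene of dividing cells, was found in 1.43%, 8.51%, 57.9%, 0% and 25% of the GZMB-rich T cells of days 0, 1, 7, 14 and 21, or in 1, 4, 11, 0 and 1 cells. Day 7 thus stood apart from the other late libraries as well as from the early ones. In T cells without GZMB the shares on the same days were 2.28%, 0.955%, 15.6%, 8.15% and 9.47%. The GZMB-rich cells of day 7 were also the deepest, and the part of depth in the shares was not tested.

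Which members were found in the same CD8 T cell was counted over the 790 cells of 6 libraries, which differ in depth and age. Of the 36 cells with a GZMA UMI, 77.8% had GZMB, against 5.04% of cells without it. Of the 66 cells with GZMB, 92.4% had NKG7 and 39.4% had PRF1, against 64.5% and 13.3% of the others. XCL1 and NKG7 were also found together, with XCL1 in 57.0% of cells with NKG7 and 25.2% of those without. CTSW was not found more often with GZMB, since 77.3% of GZMB-positive and 86.6% of GZMB-negative cells had it. It was in 72.2% of cells with GZMA and 86.5% of those without, and for GZMK in 87.0% and 85.8%. These shares pool early and late libraries, between which CTSW in GZMB-rich T cells differed as given above. Cells with GZMB had a median of 4764 UMIs and those without 3831, and the part of depth in these shares was not tested.

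**Figure D5:**
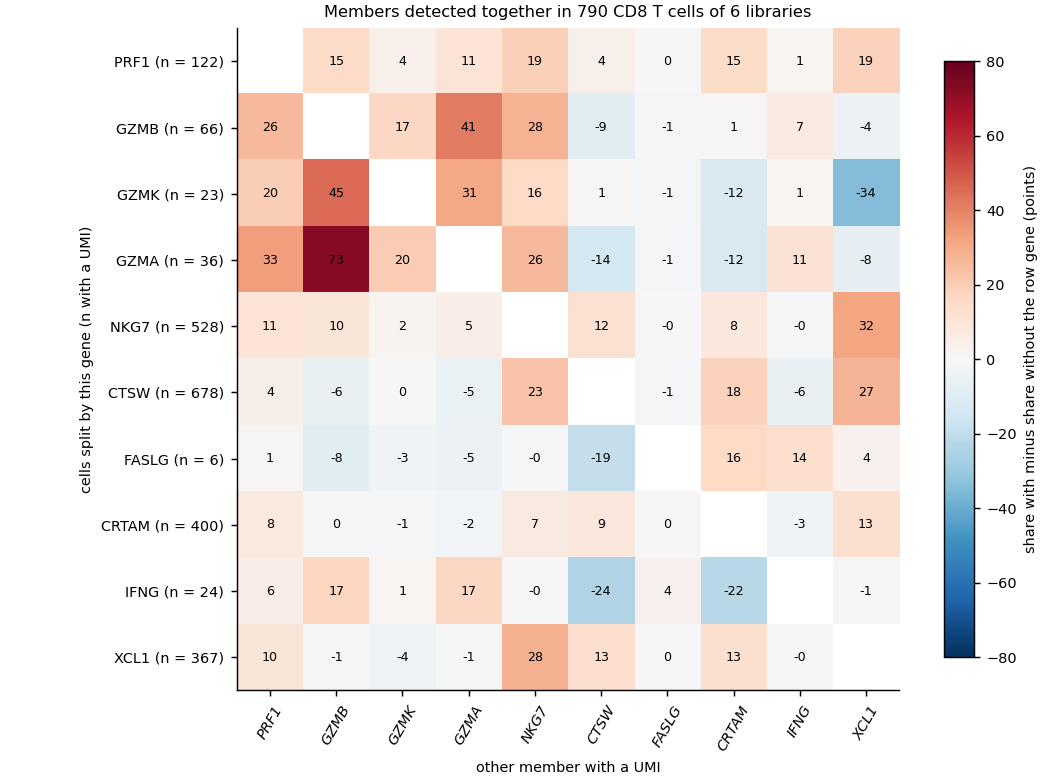
The heat map gives, for CD8 T cells with and without a UMI of the row gene, the difference in the share that had a UMI of the column gene (percentage points, as a colour scale, n beside each row). The largest difference was of GZMB in cells with GZMA, 77.8% against 5.04%, followed by GZMB in the 23 cells with GZMK, 52.2% against 7.04%, and rows with few cells, such as FASLG with 6, are unsteady.

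A median of 2 to 3 members was detected per CD8 T cell, 1 to 3 per double-negative T cell, 0 to 1 per CD4 T cell and 2 to 3 per innate lymphoid cell. At least 1 UMI of perforin or a granzyme was found in 17.8%, 16.2%, 13.3%, 31.3%, 32.1% and 34.5% of CD8 T cells. The exact interval of day 0 (13.5% to 22.8%) lay below that of day 14 (23.5% to 41.7%), while those of day 3 (5.94% to 24.6%) and day 21 (22.2% to 48.6%) overlapped. Among CD4 T cells the share ran from 0% to 8.43%.

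The genes whose level ran most like the sum of the members, over the 17 sums of the CD8 T, CD4 T and innate lymphoid gates and among 2662 genes ranked, were FCER1G (Pearson r 0.92), CD96 (0.91), the unnamed LOC100620198 (0.89), RUNX3 (0.89) and ABCB1 (0.88). These sums share libraries and cell types, and CTSW makes up much of the summed members, so the coefficients are a description.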

How the data were processed

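Single-cell RNA of piglet ileum was counted in 6 libraries, 1 per age. The authors used Cell Ranger 3.1.0 with STAR against Sscrofa11.1 and deposited the resulting UMI counts of every gene in every barcode, neither filtered nor normalized, with 77391932 to 100348769 UMIs per library. The labels and the methods name different versions of the kit, and the series description names the cecum where the sample labels name the ileum. How the cells of the 5 piglets of an age were combined is not given in the sources used here. No annotation of cells was used, no doublet caller was run, and doublets were limited only by the gates and, as an alternative, by leaving out the 5% of barcodes with the most UMIs.

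Gates, levels, exact Poisson and Clopper-Pearson intervals at 95%, and shares at 1000 UMIs (the expectation under sampling without replacement) were computed in Python. Sums per library and gate with at least 10 cells were tested with edgeR 4.0.16 (R 4.3.3, TMM scaling, filterByExpr, glmQLFit, glmQLFTest) with a term for each library and Benjamini-Hochberg adjustment over all genes tested. The SE is the log2 fold change divided by the root of the quasi-likelihood F. The libraries are the pairs, since both gates of a pair come from the same library. With the library term, these p-values measure a gate difference against its own spread from library to library, each library being of another age. On simulated sums of CD8 and CD4 T cells with 200 genes changed 4-fold among 5165, the test recovered 86% and called 9 unchanged genes. The simulated sums held no effect of age and no change above 4-fold. These figures therefore do not describe the test on members that are near-empty in 1 gate. DESeq2 1.42.0, other filters, scalings and gates, and leaving out each library served as alternatives.

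The named genes are the 10 members, the genes of fixed lists (those with the largest fold change among called ones), the marker genes and the 5 genes most like the summed members. The members and lists were chosen with earlier results of these data known. The genes of the GZMB-rich T cells, from the same lists, were picked for the text after their values were seen. Positions come from the NCBI RefSeq table of Sscrofa11.1, in which all 20648 symbols were found. No sequence was used. Some genes of the marker and pathway lists are not reported here.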

Additional observations from a re-analysis of the deposited data

How the results depend on the processing

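Of the log2 fold changes of single members between gates under each other setting, 266 kept their direction and their side of the threshold, 4 changed sign, 2 gained a call and 1 lost it. All 4 sign changes were of small, uncalled differences between the CD8 T cells with both chains and those with CD8A alone. CRTAM was at -0.028 without the 5% deepest barcodes. Leaving out each library in turn, CRTAM ran from -0.057 (without day 0) to 0.46, NKG7 from -0.31 to 0.22 (without day 1) and PRF1 from -0.035 (without day 7) to 0.67. Without the low-count filter, 2 members were called higher and 8 lower in innate lymphoid than in CD8 T cells, FASLG being added to the higher and GZMK, GZMA and IFNG to the lower, and 1, GZMB, was called higher in the cells with both CD8 chains. The same setting called 8 members higher in CD8 than in CD4 T cells, and over all settings that count ran from 5 to 8. Over all genes that fit called 8% higher and 5.65% lower for innate lymphoid cells, 0.206% higher for the cells with both chains and 1.95% higher for CD8 T cells. The added calls rest on near-empty gates: GZMK, GZMA and IFNG had 2, 6 and 0 UMIs in innate lymphoid cells, GZMK and GZMA had 1 and 2 in CD4 T cells, and FASLG had 6 in CD8 T cells. GZMB fell under the count filter in 6 of the 16 settings of that comparison, among them those without day 0, day 1 or day 7. Leaving out a library in turn gave 0 to 1 called members for CD8A and CD8B cells over CD8A-only cells, 1 without day 0. Without the library term as a replicate block, the count of members called in each comparison of gates was the same, except that CTSW lost its call between CD8 and CD4 T cells (1.75), leaving 5.

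For day 0 against day 21 in CD8 T cells, the number of members higher on day 0 was 1, and became 2 with at least 3 CD3 UMIs, 2 without the 5% deepest barcodes and 0 at 1000 UMIs per barcode. In settings added after seeing the data it was 3 over all T cells and 3 over double-negative T cells. The number lower on day 0 was 4, and became 1 (GZMB) at 1000 UMIs per barcode and 1 over double-negative T cells. The share over all genes was computed only for CD8 T cells without these changes, so the other counts have no background. Thinning leaves fewer counts, which widens the intervals, and gives each barcode the same weight. The ratios of day 21 to day 0 moved as well, from 1.88 to 1.08 (0.711 to 1.58) for NKG7 and from 2.74 to 1.70 for PRF1. For GZMB the ratio was 5.79 before and 5.11 after thinning. Which of these changed the counts of members was not tested. FASLG, IFNG and GZMK rest on few counts, with 6, 35 and 30 UMIs in all CD8 T cells, and the part of depth in this was not tested.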

Other observations

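Double-negative T cells, the largest T cell gate, varied in the members between libraries. GZMB stood at 2.06, 2.57, 0.0268, 0.320, 3.1 and 2.07 UMIs per 10000 there on days 0, 1, 3, 7, 14 and 21, so day 3 was the lowest library in this gate as in CD8 T cells. The late values rest on few cells. Without the largest barcode of each library, day 14 was at 1.79 and day 21 at 0.114. IFNG in these cells was highest on day 1, at 0.196 (0.163 to 0.234), with 124 of its 165 UMIs in that library, but 63 of these lay in 1 barcode and without it the level was 0.0966. By share of cells day 7 was the highest, at 3.70%, against 2.30% on day 1.

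In innate lymphoid cells GZMB was found in 18.3% of cells on day 14, against 0.263% on day 3. Day 14 had 34 UMIs in 20 cells and 7 at most in 1 barcode. The 7 B cell markers of this gate stood at 8.91 UMIs per 10000 on day 14 and 2.94 on day 3. Free GZMB stood at 0.0913 and 0.00519, and the part of either was not tested.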
